A study of Homo sapiens with 3 samples.

Results

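The transcripts of Polycomb repressive complex 2 (PRC2) were examined for RBM17 binding by eCLIP in K562 cells. The members were 9 genes, chosen by name as the PRC2 core and its best known partners (EZH2, EZH1, SUZ12, EED, RBBP4, RBBP7, JARID2, MTF2 and PHF19), of 10872 genes that had a cluster of reads in replicate 2. K562 is an established line of chronic myelogenous leukemia cells, and the labels name no engineered genetic change and no drug. RBM17 is a splicing factor that works with the U2 snRNP. In eCLIP, ultraviolet light links a protein to the RNA that it touches, the protein is pulled down with an antibody, and the RNA fragments are sequenced beside a size-matched input that ran through the same gel range without pull-down. For each library 20000000 cells received 400 mJ/cm2 of 254 nm light, a mixture of antibodies against RBM17 (10 μg) was used for each of 2 eCLIP samples, and 1 input (2% of a sample) was kept, all cut from the gel between 50 and 125 kDa. The labels do not say whether the eCLIP samples came from separate cultures, and both were compared with the same input, so their folds share its counting error.

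PRC2 places methyl groups on lysine 27 of histone H3, a mark of silenced chromatin. EZH2 or EZH1 carries the methyltransferase activity, EED and SUZ12 hold the enzyme in an active form, RBBP4 and RBBP7 bind histones, and JARID2, MTF2 and PHF19 bring the complex to chromatin. In acute myeloid leukemia EZH2 has been described with both growth-promoting and tumor-suppressing roles, and its transcript can take up a poison exon, an exon whose inclusion brings a premature stop codon and exposes the RNA to nonsense-mediated decay (NMD).

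The study reported more inclusion of a poison exon or intron in EZH2 after RBM17 knockdown. From these same eCLIP data it also named EZH2 as a predicted direct splicing target, with RBM17 bound in intronic regions. The EZH2 peaks given below come from the same data and are not new evidence of binding. The exon shown here was picked from GENCODE v44 and was not checked against that of the study. Among exons inside introns of the canonical EZH2 transcript, it is the one in the most transcripts annotated as NMD targets. The splice sites around it were read from the hg38 genome on the minus strand of chromosome 7. The exon lies at chr7:148818978-148819059, is 82 bp long and sits in intron 9 of the canonical transcript, which has 20 exons. Among annotated EZH2 transcripts 7 contain it, and 5 of these are annotated as NMD targets. Capitals mark the GT or AG of the intron in the first 4 sequences and the stop codon in the last.
donor of exon 9 (chr7:148819572-148819601): catttgGTaagacttagtgcctaattattg
acceptor of the poison exon (chr7:148819054-148819083): accatttcccctctttgaaccaAGccactc
donor of the poison exon (chr7:148818954-148818983): cagaagGTatcctatttttaagcaatttgg
acceptor of exon 10 (chr7:148818112-148818141): atgttgacatttttcatttcgtAGgaggga
start of the poison exon to its stop codon (chr7:148819039-148819059): ccactcctacctaggaacTAA
Read from exon 9, the frame met the stop codon after 18 bases of the poison exon. In the 30 bases printed at each acceptor, 70% were pyrimidines at the poison exon and 50% at exon 10. The intron was 17.4% G over its 1478 bases, with 20.5% in the stretch of 536 bases before the poison exon and 14.9% in the 860 bases after it. The deposited clusters are in hg19 (they reach 249211903 on chromosome 1, past its end in hg38) and no hg19 genome was used here, so these sites and the clusters were not placed on one map. Whether any cluster lies at the poison exon was not tested.

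The libraries were deposited as lists of clusters. Replicate 1 was deposited as 137095 clusters, each with a log2 fold relative to the input and a −log10 p for it, replicate 2 as 114848 distinct clusters with a gene, a number of reads and the p-value of the peak caller, and a shorter list holds 866 peaks that the authors called reproducible in both. A cluster of replicate 2 has no input behind it and was not required to exceed it. Of the replicate 1 folds, 99.9% proved to be ratios of whole numbers with a constant shift. Where the p followed from exactly 1 such pair of numbers, the immunoprecipitated and input reads could be worked out, which held for 92.9% of the clusters with a log2 fold above 0. They are called recovered reads below and are derived values. Clusters below 0 stay without recovered reads. The lowest recovered input count was 1, which may stand for 0. Depths estimated from the deepest clusters were 4440000 reads for replicate 1, 3400000 for replicate 2 and 5070000 for the input. As a check of the cell line, all 8 erythroid marker genes had replicate 2 clusters, whereas of 6 markers of other cell types only EPCAM did, with 11 reads. In all that follows there is 1 sample a replicate, so no test between samples was possible, and intervals are exact 95% intervals for counting error alone.

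EZH2, the main methyltransferase of PRC2, was the member with the most RBM17 reads and the one with reproducible peaks. Its 43 replicate 2 clusters held 906 reads, which put it at the 99.1 percentile of genes, where the median gene had 33 reads. Its reads made up 40.9% (38.8 to 43.0%) of the 2215 reads of the 9 members. Per kb of gene length in hg38, EZH2 had 11.8 reads, RBBP4 9.64 and JARID2 0.464, so that EZH2 led on this scale too, with 29.3% of the sum. In replicate 1 clusters with recovered reads, EZH2 had 3.83 input reads per kb of gene, and the other members from 0.425 in EED to 2.40 in PHF19. These values leave out clusters with a log2 fold below 0, which were 12 of 25 in RBBP4 and 8 of 47 in EZH2. They therefore do not rank the members by all of their input reads. The part of transcript abundance in the replicate 2 reads was not tested. The 3 reproducible peaks of EZH2 stood beside none in the other 8 members. Of all 10872 genes, 428 had a peak within the span of their clusters (3.94%). Among genes with as many replicate 2 reads as EZH2 or more, 43.7% had a peak, and among genes in the read range of the other 8 members 10.1% had one.

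The EZH2 clusters spanned chr7:148505120-148573972 of hg19 on the minus strand, a stretch of 68.9 kb. Both replicates were dense toward the 3′ end of that span. From 50 to 60 kb after its 5′ end lay 20 replicate 2 clusters with 547 reads, which is 60.4% of the EZH2 reads. The stretch from 60 to 70 kb followed with 12 clusters and 215 reads. The first 40 kb held 6 clusters, none of more than 11 reads. Replicate 1 had 19 clusters from 50 to 60 kb and 12 from 60 to 70 kb, with median log2 folds of 1.54 and 1.51, against a median of 1.51 over all replicate 1 clusters. Thus the region rich in replicate 2 reads had median folds in replicate 1 near that of all clusters, and a few clusters with higher ones. All clusters include many shallow ones, 10.1% being 3 reads against 1, and no median matched for depth was worked out.

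**Figure D1:**
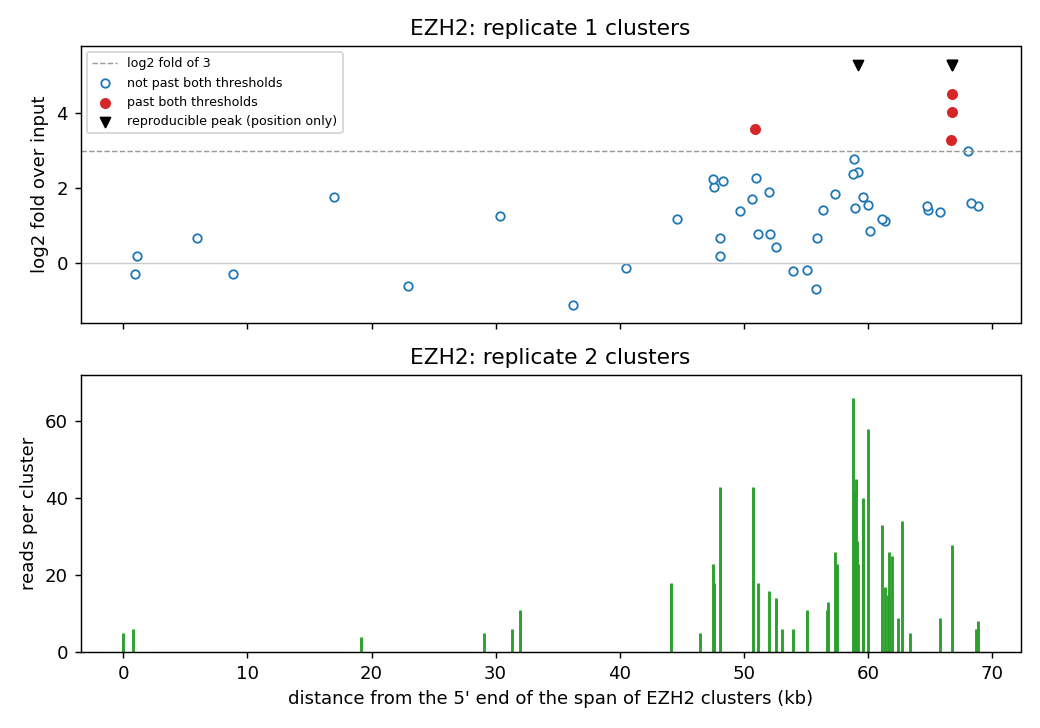
Clusters of EZH2 by distance in kb from the 5′ end of their span, with the log2 fold over input of each replicate 1 cluster above (red where both thresholds were passed) and the reads of each replicate 2 cluster below. The black triangles mark the 3 reproducible peaks by position only, a pair near 67 kb that is drawn as 1 mark and another near 59 kb.

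The first peak of EZH2, at chr7:148507153-148507195, held 40 recovered reads in replicate 1 and 30 in replicate 2 against 2 in the input. Its log2 fold was 4.51 (2.56 to 7.61) in replicate 1 and 4.48 (2.50 to 7.59) in replicate 2. The replicates thus differed by 0.03 at this peak, far less than the width of either interval. The second peak abuts it, at chr7:148507196-148507255, with 57 and 29 recovered reads against 4 in the input. There the log2 fold was 4.02 (2.59 to 5.95) in replicate 1 and 3.43 (1.92 to 5.40) in replicate 2. A single replicate 2 cluster, 28 reads at chr7:148507161-148507196, met both peaks, the second by 1 bp. Reads that cross both intervals may be counted in each, so these peaks may not be separate evidence. The third peak, at chr7:148514797-148514817, held 41 recovered reads in replicate 1 and 23 deposited reads in replicate 2 against 4 in the input. Its log2 fold was 3.55 (2.08 to 5.49) in replicate 1 and 3.10 (1.55 to 5.09) in replicate 2. This interval is that of a replicate 2 cluster, and the wider replicate 1 cluster over it, chr7:148514771-148514850, had 61 reads against 13 and a log2 fold of 2.42, under the threshold of 3. Replicate 1 had the higher fold at each of the 3 peaks, as it did at 74.1% of the 853 peaks of all genes for which reads could be recovered, and the intervals of the replicates overlapped at each. With 2 to 4 input reads, the lower bounds of the 6 log2 folds ran from 1.55 to 2.59, all above 0 and all under the threshold of 3. The median peak of all genes likewise rested on 41 replicate 1 reads, 22 replicate 2 reads and 3 input reads.

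**Figure D2:**
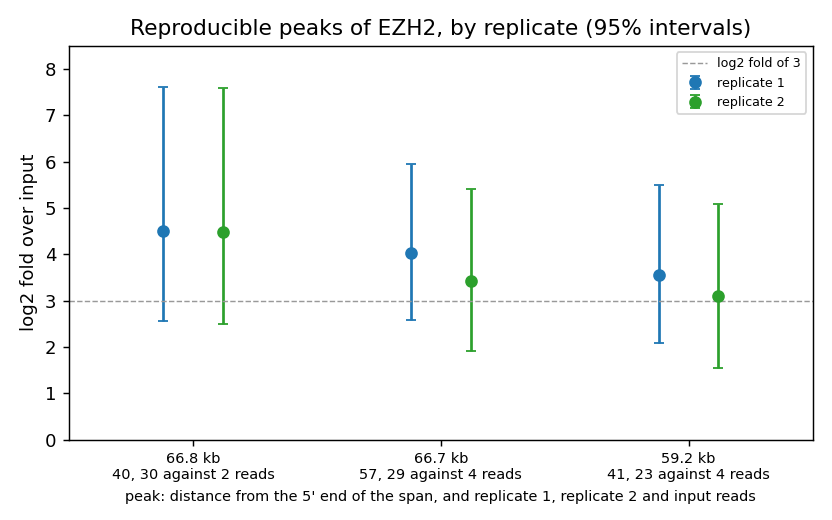
Log2 fold over input at the 3 reproducible peaks of EZH2 in replicate 1 (blue) and replicate 2 (green), with exact 95% intervals for counting error, and the recovered reads under each peak. All 6 points lie above the dashed line at 3, and every interval crosses it.

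In replicate 1 alone, EZH2 had 47 clusters with log2 folds from -1.13 to 4.51 and a median of 1.41, and 8 of them were below 0. Of these, 4 passed both thresholds, which were 3 for the log2 fold and 3 for the −log10 p. The intervals of the first and second peaks account for 2 of the 4. Next to them lay chr7:148507284-148507329, with 34 reads against 4 and a log2 fold of 3.28, and further upstream chr7:148523082-148523122, with 21 against 2 and 3.58. Neither of these overlapped a replicate 2 cluster. Conversely, the EZH2 cluster with the most replicate 2 reads, 66 at chr7:148515113-148515212, met replicate 1 clusters of 36 reads against 6 and of 50 against 11, with log2 folds of 2.77 and 2.37. The next, 58 reads at chr7:148513959-148514028, met a replicate 1 cluster of 23 against 9, with a log2 fold of 1.54. At these sites the replicate 1 folds were thus under the threshold of 3. Those of 2.77 (1.51 to 4.31) and 2.37 (1.41 to 3.47) had intervals that held 3. Both lay above the median of all replicate 1 clusters, 1.51, while 1.54 was near it.

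EZH1, the less active paralog of EZH2, had 15 replicate 2 clusters with 112 reads, from 3 to 12 each, at chr17:40853181-40872394. Its 16 replicate 1 clusters had log2 folds from 0.19 to 4.10, none below 0, and their median of 1.98 was the highest of the 9 members. Of these, 3 passed both thresholds, with 15 recovered reads against 1, 14 against 1 and 15 against 2. The highest, at chr17:40864447-40864490, had a log2 fold of 4.10 (1.40 to 9.49) and no replicate 2 cluster over it. The cluster of 14 against 1, at chr17:40861867-40861916, overlapped a replicate 2 cluster of 7 reads, and that of 15 against 2 overlapped none. The most replicate 2 reads in a cluster of EZH1 were 12, at both chr17:40864306-40864348 and chr17:40871121-40871175. EZH1 thus had folds near those of the EZH2 peaks on fewer reads, and no reproducible peak.

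SUZ12, the scaffold of the core complex, held the highest single fold of the members. At chr17:30320622-30320716 replicate 1 had 25 recovered reads against 1, a log2 fold of 4.83 (2.22 to 10.2), and no replicate 2 cluster overlapped it. No other SUZ12 cluster passed both thresholds, and the median log2 fold of all 36 was 0.77. In replicate 2, its 26 clusters held 123 reads with a median of 4, and the deepest, 13 reads, lay near the 5′ end of the span at chr17:30264205-30264270. The transcribed copy SUZ12P1 had 30 replicate 2 clusters with 191 reads, more than SUZ12 itself, so reads could have been split between the near-identical sequences and both values are uncertain. Of 10 annotated pseudogenes of the members, the other 9 had no cluster.

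EED, which reads the methyl mark and stimulates the enzyme, had 19 replicate 2 clusters with 98 reads, the fewest of the 9 members. Its deepest cluster, 17 reads at chr11:85956012-85956118, began its span and overlapped a replicate 1 cluster of 15 reads against 4 with a log2 fold of 2.10. None of its 16 replicate 1 clusters passed both thresholds, and their log2 folds reached 2.51. Against an input of 1 read a cluster needs 13 reads to pass, and 1 of the 15 EED clusters with recovered reads had as many.

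The histone-binding subunits RBBP4 and RBBP7, which also serve the NuRD and Sin3 deacetylase complexes, had many replicate 2 reads and low folds. RBBP4 held 338 reads in 25 clusters (95.4 percentile), 14 of them with a caller p of at most 1e-10. In replicate 1 its 25 clusters had a median log2 fold of 0.19, and 12 were below 0, the largest number of the 9 members. The single cluster past both thresholds, at chr1:33134514-33134550, had 14 reads against 1 and a log2 fold of 4.00 (1.28 to 9.40). The deepest replicate 2 cluster, 32 reads at chr1:33138243-33138295, overlapped no replicate 1 cluster. RBBP7 held 132 reads in 10 clusters, and its deepest, 24 reads at chrX:16870955-16871078, overlapped none either. Its 15 replicate 1 clusters had a median log2 fold of 0.19 with 5 below 0, and none passed the thresholds. In these subunits the replicate 2 reads were thus not matched by a fold over the input in replicate 1.

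**Figure D3:**
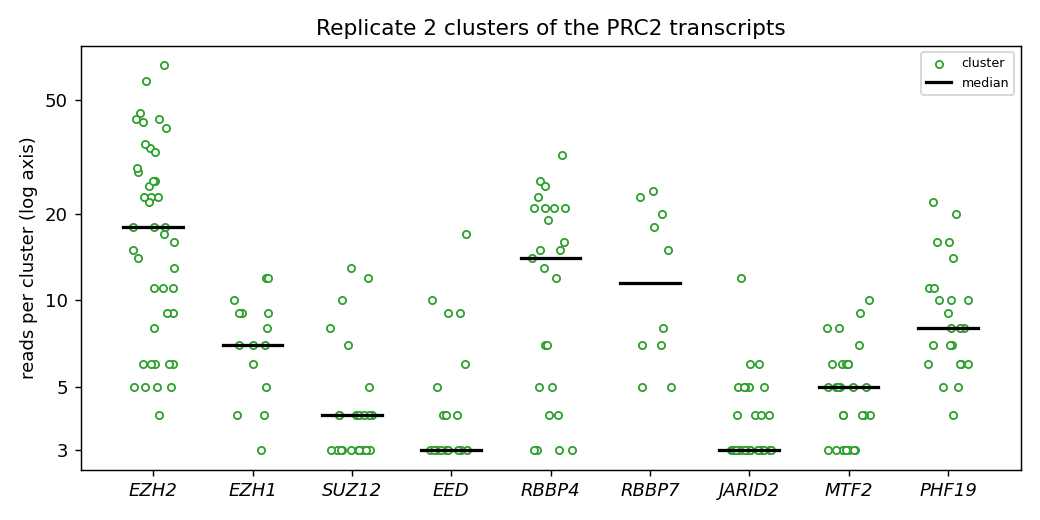
Reads of each replicate 2 cluster (log axis) in the 9 PRC2 transcripts, with the median as a bar. EZH2 has the highest median, 18 reads, followed by RBBP4 with 14 and RBBP7 with 11.5, and EED and JARID2 have medians of 3.

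**Figure D4:**
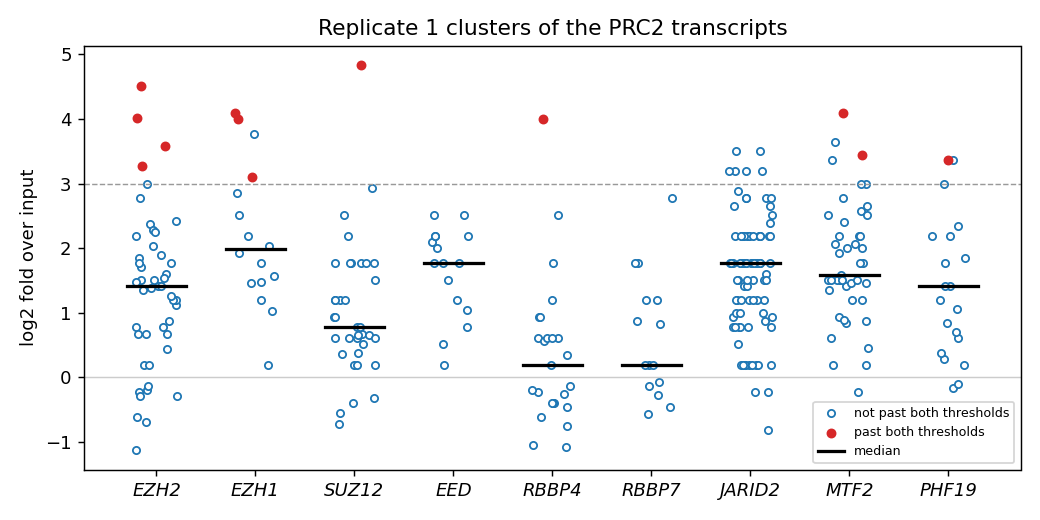
Log2 fold over input of each replicate 1 cluster in the 9 PRC2 transcripts, with the median as a bar and red points past both thresholds. EZH1 has the highest median, 1.98, and RBBP4 and RBBP7 the lowest, 0.19.

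JARID2, which helps to recruit and activate PRC2, was the longest member, with clusters over 274 kb at chr6:15247675-15521684. It had the most replicate 1 clusters, 88, and the fewest replicate 2 reads per kb of gene, with 33 clusters, 128 reads and a median of 3. The replicate 1 clusters had a median log2 fold of 1.77, which is the value that 3 reads against 1 give, and 16 of them were exactly that. None passed both thresholds. The highest log2 fold with a −log10 p of at least 3 was 2.39 (0.96 to 4.14), from 23 reads against 5 at chr6:15374413-15374476. Only 5 of its 88 replicate 1 clusters overlapped a replicate 2 cluster (5.68%, interval 1.87 to 12.8%). Its median fold thus lay above that of all clusters, 1.51, but on thin counts and in clusters that seldom met one in replicate 2.

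MTF2 and PHF19 are Polycomb-like proteins that bind CpG-rich DNA. MTF2 had 29 replicate 2 clusters with 146 reads, from 3 to 10 each, and 45 replicate 1 clusters with a median log2 fold of 1.58. Past both thresholds were chr1:93585725-93585783 with 15 reads against 1, a log2 fold of 4.10 and a replicate 2 cluster of 5 reads over it, and a cluster of 19 against 2 with 3.44. PHF19 had 24 replicate 2 clusters with 232 reads, of which 22 lay at chr9:123636833-123636924, and 21 replicate 1 clusters with a median log2 fold of 1.41. Its cluster past the thresholds, chr9:123627987-123628032, had 18 reads against 2 and a log2 fold of 3.36 (1.30 to 6.51), without a replicate 2 cluster. Both partners therefore had single sites above the thresholds on 15 to 19 reads, none of them a reproducible peak.

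Over all 9 members, 12 of 309 replicate 1 clusters passed both thresholds (3.88%, interval 2.02 to 6.69%), against 5.35% of all replicate 1 clusters. The 12 lay in 6 members, and the share of all genes with such a cluster was not worked out. Of the 84 member clusters with at least 10 recovered reads, a minimum that by its construction keeps every call with recovered reads and removes only clusters that were not called, 12 passed (14.3%, interval 7.61 to 23.6%), against 21.5% of all such clusters. The interval of the members held the share of all clusters in both cases. Of the 253 member clusters with recovered reads, 192 had fewer than the 13 reads needed against 1 input read, 11 of 38 in EZH2 and 74 of 76 in JARID2. Of the 12 clusters past the thresholds, 4 overlapped a replicate 2 cluster and 2 a reproducible peak. These 2, both of EZH2, met the same replicate 2 cluster. The 8 outside EZH2 had input counts of 1 or 2.

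**Figure D5:**
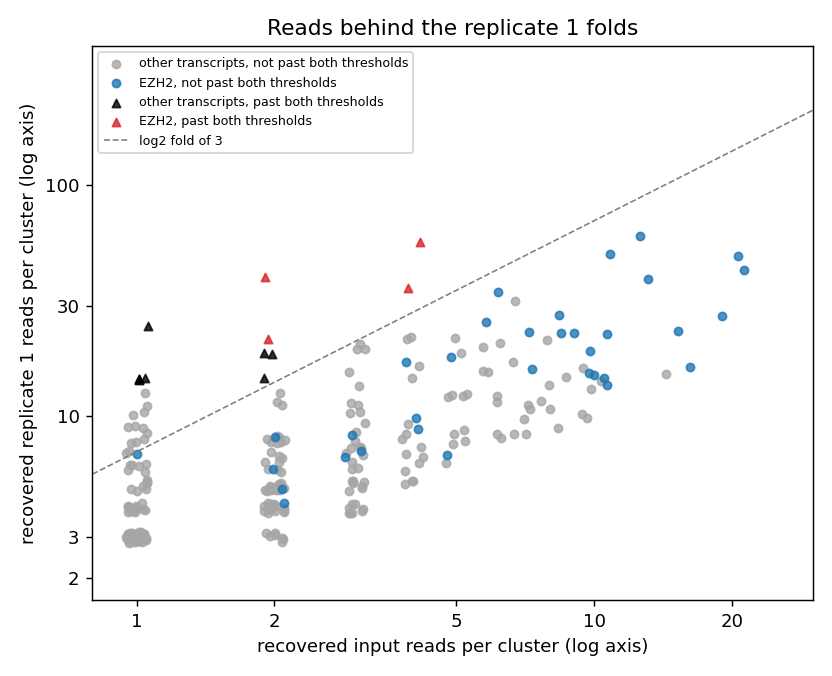
Recovered replicate 1 reads against recovered input reads for the 253 member clusters that have them (both axes log, points shifted slightly at random so that equal counts can be seen). Among the clusters shown, those of EZH2 reach higher counts of both kinds, and the 12 triangles past both thresholds have 4 input reads or fewer. Clusters without recovered reads, among them all with a log2 fold below 0, are not shown, so the input counts of the members are not ranked by it.

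Overlap between the replicates differed among the members. Of the members' replicate 2 clusters 87 of 224 overlapped a replicate 1 cluster (38.8%, interval 32.4 to 45.6%), against 32% of all replicate 2 clusters. In the other direction 84 of 309 did (27.2%, interval 22.3 to 32.5%), against 26.3% of all. By member, PHF19 had 12 of 21 replicate 1 clusters overlapped and EZH2 22 of 47 (46.8%, interval 32.1 to 61.9%). JARID2 had the lowest share, SUZ12 followed with 6 of 36, and EZH1 had 4 of 16, MTF2 13 of 45, EED 6 of 16, and RBBP4 and RBBP7 10 of 25 and 6 of 15. The interval of JARID2 lay below those of EZH2, PHF19, RBBP4, RBBP7, MTF2 and EED. That of EZH2 overlapped the interval of every other member except JARID2. JARID2 clusters also held fewer reads, and the part of depth in the low share of JARID2 was not tested.

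Genes with the same 3 peaks and the replicate 2 reads closest to those of EZH2 were HNRNPA3 with 907 reads, VPS13D with 870, PNISR with 957, FANCA with 1002 and SGPL1 with 771. They were the closest of 50 other genes with 3 peaks, over the single replicate 2 library. Among other chromatin regulators, no peak lay in the 6 further PRC2 accessory genes, 4 of which had replicate 2 clusters, in the 20 PRC1 genes, 15 of which did, or in the 5 genes of the H3K27 demethylases and the H2A deubiquitinase. Of 11 other SET domain methyltransferases, KMT2A with 341 reads and KMT2C with 929 had a peak. Of 15 NuRD and Sin3 genes, GATAD2B with 111 reads had a peak. These counts stand beside the 3.94% of all genes with a peak.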

How the data were processed

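RBM17 eCLIP and size-matched input libraries of K562 cells went through a published eCLIP pipeline, run by the authors. Their processing notes name cutadapt and STAR, with versions not given in the sources used here, and the build was judged to be hg19. The deposited replicate 1 values are a log2 fold relative to the input and its −log10 p, the deposited replicate 2 values are a caller p-value and a read count in the cluster name, and the peaks carry a −log10 p and log2 fold that proved to be the lower −log10 p and the mean fold of both replicates, for the peaks that could be solved. Labels number the replicates 1 and 2, titles 2 and 3.

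Clusters of replicate 2 were assigned by the Ensembl identifier in their name (GENCODE v44 symbols), and replicate 1 clusters and peaks by lying within the span of these on the same strand. Overlap needed 1 bp. Reads were recovered from the fold (relative tolerance 1e-09) and the p (tolerance 0.001), where exactly 1 pair met both, with an exact test when either count was under 5 and a chi-square test otherwise. This step was chosen after the data were seen. Of 866 peaks, 853 were solved. Intervals are exact Clopper-Pearson 95%. The members, lists and named clusters (in each gene the highest replicate 1 fold with −log10 p of at least 3 and the deepest replicate 2 cluster, with every peak, and the 5 genes closest to EZH2) were chosen with earlier results of these data known, and further clusters were named after their values were seen. Recovery was tested on simulated data. Python 3.11.15, pandas 2.3.3, numpy 2.4.6, scipy 1.17.1 and matplotlib 3.10.9 were used. Alternatives were stricter and looser thresholds, read minimums, other overlap and strand rules and leaving out a replicate.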

Additional observations from a re-analysis of the deposited data

How the results depend on the processing

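EZH2 kept a reproducible peak at a log2 fold of at least 4 and at a −log10 p of at least 5. Such stricter thresholds cannot add a member, so they show only whether EZH2 stays. At a log2 fold of at least 4 its first peak stayed, with 4.50, and the others, with 3.73 and 3.32, did not. EZH2 was also the single member when the peak had to overlap a cluster named for the gene. With replicate 1 alone, 6 members had a cluster past both thresholds over the input. With replicate 2 alone, 5 members had a cluster with a caller p of at most 1e-10, a measure that uses no input. The 2 counts are thus of unlike measures. The shares of all genes that meet either measure were not worked out, so the counts show nothing particular to the members. Of the 224 replicate 2 clusters, 70 had at least 10 reads and 44 a caller p of at most 1e-10. The EZH2 share of the members' reads was 55.9% in clusters of at least 10 reads, 24.0% per kb of span and, in an alternative added after the data were seen, 29.3% per kb of gene. Replicate 1 clusters past the thresholds numbered 5 with a log2 fold of at least 4, 5 with a −log10 p of at least 5 and 23 with a log2 fold of at least 2. The shares overlapping between replicates fell to 32.1% of replicate 2 and 21.0% of replicate 1 clusters when 50% of the cluster had to be covered. With replicate 2 clusters of at least 10 reads they were 62.9% and 13.3%, the latter with fewer clusters to meet. On the opposite strand there were 0 clusters in the spans and 0% overlapped. Replicate 2 clusters are named by gene, so these values may follow from how clusters were called, which was not tested. No paired analysis was possible because the replicates are of 1 group and no result comes from a test between groups of samples, the deposited p being of reads within 1 library against the input. Depth limits the folds, since most peaks rest on few input reads.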
